A study of Mus musculus with 3 samples.

Results

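The nuclear genes of oxidative phosphorylation were followed across the cell types of mouse back skin after loss of Piezo1, a mechanically gated cation channel. Genes were taken by symbol, as those beginning with Ndufa, Ndufb, Ndufc, Ndufs or Ndufv, Cox4 to Cox8, Uqcr or Atp5, with at least 50 UMIs (unique molecular identifiers, each standing for 1 captured transcript) over the 3 libraries. Of 90 matching symbols, 85 were kept out of 32285 genes measured. Ndufb1-ps was left out because its symbol ends in -ps, and whether it is a pseudogene was not checked. Cox6a2, Cox7b2, Cox8b and Cox8c were left out with 2 to 31 UMIs each. The 85 comprise 7 core and 29 accessory subunits of complex I, 8 subunits of complex III, 13 of complex IV, 17 of complex V, the related pair Ndufa4 and Ndufa4l2, and Cox7a2l, a factor of respiratory supercomplexes. The remaining 8 are complex I assembly factors (Ndufaf1 to Ndufaf8), which help to build the complex and are not subunits of it.

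Each group was 1 library of dissociated back skin cells from C57BL/6 mice given tamoxifen from postnatal day 48 to 52, which activates a Cre recombinase driven by the keratin 5 promoter of basal keratinocytes and hair follicle epithelium. The control was K5-Cre-er/Piezo1fl/+/Tdfl/+ at day 62, so it carries the driver and 1 floxed Piezo1 allele. The 2-week knockout was K5-Cre-er/Piezo1fl/fl/Tdfl/+ at day 62, and the 3-week knockout was K5-Cre-er/Piezo1fl/fl/Tdfl/fl at day 71. The 3-week library has no control of its own age and differs in the Td allele as well, and both comparisons use the same control library. With 1 library a group there is no replicate error and no test, and every interval below is an exact 95% interval for counting error only.

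Oxidative phosphorylation is the chain of inner mitochondrial membrane complexes that turns reducing equivalents into ATP. Complex I takes electrons from NADH, complex III passes them from ubiquinol to cytochrome c, complex IV hands them to oxygen, and complex V uses the resulting proton gradient to make ATP. Most subunits are encoded in the nucleus and 13 in the mitochondrial genome, so each complex other than complex II is assembled from both. In skin, sebaceous gland cells make lipid from mitochondrial citrate, and hair follicle stem cells are known for their use of glycolysis.

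The promoters of these genes hold recurrent short sequences, shown here because the genes that were higher across cell types do not share 1 of them. RefSeq promoter windows (GRCm38.p6, 250 bases before to 50 after the start) were found for 71 of the 85 genes. On either strand, the NRF1 letters GCGCATGCG were in 10 of 71 (14.1%) against 1.95% of 27025 promoters, and the YY1 letters AAGATGGC in 11 (15.5%) against 3.19%. The ETS letters CCGGAAG were in 17 (23.9%) against 9.93%, the ERR letters TCAAGGTCA in 1 (1.41%) against 0.466%, and the CCAAT box, CCAAT, in 31 (43.7%) against 41.1%. In 7 of the 10 genes the NRF1 letters lie on both strands at once, in a palindrome of 10 bases. Sites of 30 bases follow for 5 of the 10 genes, 4 that were higher in several knockout cell classes and Ndufaf4, which was called lower in 2 classes at 2 weeks, with the NRF1 letters in capitals. The sites are, in the order printed, chr5:108434430-108434459, chr15:102671070-102671099, chr10:80406807-80406836 (all minus strand), chr17:56717692-56717721 and chr4:24897960-24897989 (both plus strand), and their letters begin 50, 42, 5, 60 and 113 bases before the RefSeq start.
Atp5k: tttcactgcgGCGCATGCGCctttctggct
Atp5g2: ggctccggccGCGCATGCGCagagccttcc
Uqcr11: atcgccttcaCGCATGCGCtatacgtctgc
Ndufa11: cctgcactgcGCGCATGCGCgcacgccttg
Ndufaf4: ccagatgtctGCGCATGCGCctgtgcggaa

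Some genes named below, such as Ndufa4l2 and Atp5a1, had no promoter window, so the letters could not be looked for. Several others had a window without the NRF1 letters. The 120 bases before the RefSeq start are shown for 4 of them that were higher in most classes, Ndufa3 (chr7:3617253-3617372, plus strand), Atp5md (chr19:47090648-47090767, minus), Ndufv3 (chr17:31519995-31520114, plus) and Ndufaf2 (chr13:108158626-108158745, minus), and for Cox6b2 (chr7:4753095-4753214, minus), which marked the dermal papilla. Capitals mark the CCAAT box on either strand, which Ndufa3 lacks in this window.
Ndufa3: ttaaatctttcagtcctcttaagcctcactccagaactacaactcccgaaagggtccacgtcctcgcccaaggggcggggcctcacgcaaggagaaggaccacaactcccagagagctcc
Atp5md: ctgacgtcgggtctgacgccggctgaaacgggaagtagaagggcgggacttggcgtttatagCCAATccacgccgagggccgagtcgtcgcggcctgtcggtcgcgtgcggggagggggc
Ndufv3: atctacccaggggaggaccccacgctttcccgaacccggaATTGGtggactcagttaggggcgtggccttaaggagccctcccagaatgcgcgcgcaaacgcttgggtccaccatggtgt
Ndufaf2: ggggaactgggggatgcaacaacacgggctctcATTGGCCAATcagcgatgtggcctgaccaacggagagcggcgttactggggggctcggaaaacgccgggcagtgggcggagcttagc
Cox6b2: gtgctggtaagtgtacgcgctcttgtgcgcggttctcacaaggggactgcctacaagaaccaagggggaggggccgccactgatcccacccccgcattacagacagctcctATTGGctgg

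The libraries held 4899, 9568 and 9637 cells after filtering, in the order control, 2-week and 3-week, an order kept throughout. Median depth was 9985, 7502 and 8793 UMIs per cell, and the control was the deepest in each of the 8 classes compared. The 85 genes took 1.46%, 1.59% and 1.73% of all UMIs. Between 17 and 29 cell barcodes were shared by each pair of libraries. Cells were clustered over the 3 libraries, and classes were called by their marker genes as "-like". Piezo1 in basal-like cells stood at 34.0, 22.9 and 15.4 CPM (372, 373 and 370 UMIs). CPM are the UMIs of a gene in a class per 1000000 UMIs of that class. This 3' readout lies outside the floxed part and so checks the deletion only weakly. Piezo1 was below control outside the epithelium too, in dermal papilla or sheath-like (104, 58.2 and 47.2 CPM) and fibroblast-like cells (65.1, 56.2 and 40.5). Some classes with few Piezo1 UMIs, such as Langerhans or dendritic-like cells (1, 4 and 21 UMIs), went the other way.

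Sebaceous gland-like cells carried the highest level of these transcripts in every library. The 85 genes summed to 34907, 38554 and 40432 CPM there, from 97, 20 and 115 cells, against 14257, 17083 and 17347 in interfollicular basal-like cells. The sebaceous level was 2.45 times the basal one in control (interval 2.43 to 2.47) and 2.26 and 2.33 times in the knockouts. Of the 85 genes, 69 had their highest pooled level of 18 classes in sebaceous gland-like cells and 7 in pericyte or smooth muscle-like cells. Another 5 had it in cluster 23, an unnamed cluster led by Gm26917 and Mir205hg. The same count over all genes was not made.

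Ndufab1, the mitochondrial acyl carrier protein that serves both complex I and fatty acid synthesis, reached 400 CPM in sebaceous gland-like cells over the pooled libraries, 4.90 times its median over classes. Cox7b of complex IV reached 1045 CPM (4.28 times) and Uqcrq of complex III 977 CPM (4.13 times). In all, 25 genes were at least 3 times their median in their highest class. That class was sebaceous gland-like for 19, among them the core subunits Ndufs1, Ndufs3, Ndufs7 and Ndufs8. Some passed in more than 1 class, such as Ndufa4l2 (7 classes) and Cox7a1 (8, over a median of only 0.22 CPM). How many of all genes passed was not counted. The sebaceous gland-like class held 2 clusters. The one led by lipid synthesis genes (Scd1 and Elovl6 among them) was the higher, at 41761, 48533 and 45743 CPM from 37, 5 and 52 cells. The other, led by Akr1c18 and Plin2, stood at 26615, 31684 and 30716 CPM.

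At the other end were the dermal mesenchymal classes. Fibroblast-like cells had 9342, 11631 and 11183 CPM and dermal papilla or sheath-like cells 9831, 10723 and 12277 CPM. Bulge-like cells, which include the resting follicle stem cells, had 11481, 13118 and 14597 CPM, the lowest of the named epithelial classes, and cycling keratinocyte-like cells had 17041, 20865 and 20198 CPM, above basal-like and suprabasal-like cells in each library. Blood endothelial-like cells (11805, 12117 and 13350) and Schwann-like cells (12449, 14315 and 16141) lay between. Pericyte or smooth muscle-like cells had 27539, 19604 and 26149 CPM, but this class mixes clusters, and its smooth muscle cluster (Acta2, Des, Actg2) at 35920 and 35952 CPM in control and 3-week held a single cell in the 2-week library.

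**Figure D1:**
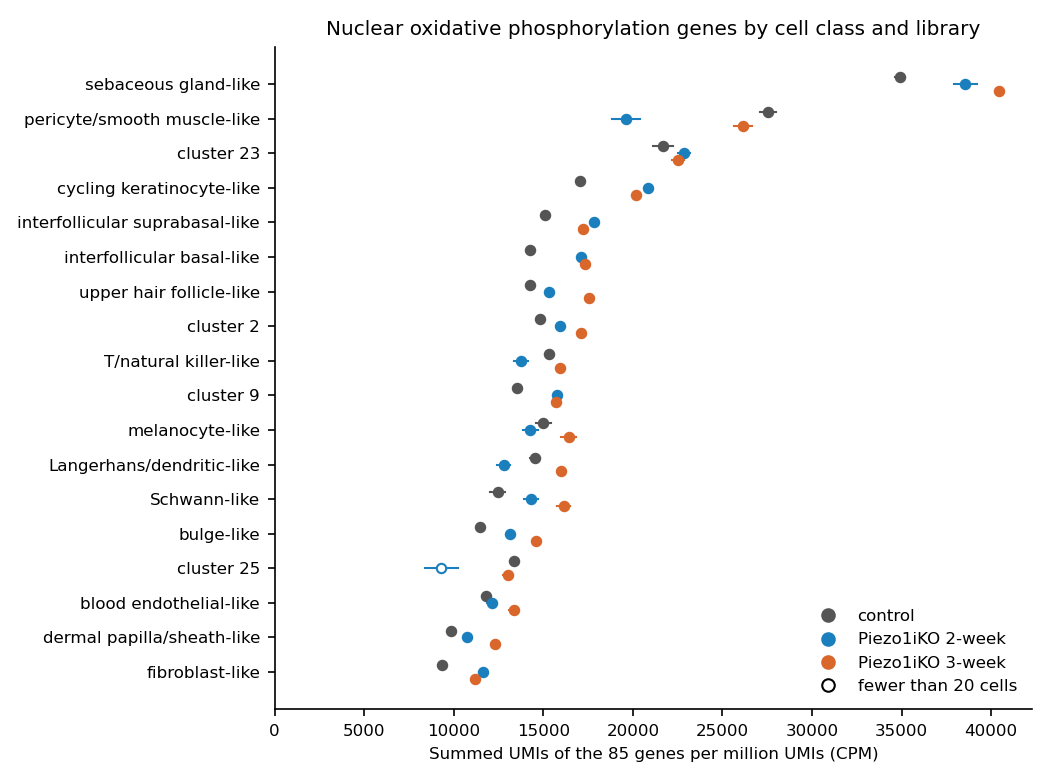
Summed CPM of the 85 genes (x axis) in 18 cell classes or unnamed clusters (y axis), 1 point per library with its exact counting interval and open points for fewer than 20 cells. Sebaceous gland-like cells lie at 34907 to 40432 CPM, and fibroblast-like cells at 9342 to 11631.

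The order of the 18 classes followed that of the mitochondrial ribosome. Across classes, the Spearman correlation of the summed level of the 85 genes with that of the 78 mitochondrial ribosomal protein genes was 0.86, 0.86 and 0.91 in the 3 libraries, as a description over 18 points that share a library. With the 13 mitochondrially encoded subunits it was 0.49, 0.16 and 0.45, while the Pearson correlation was 0.88, 0.70 and 0.87. Sebaceous gland-like and pericyte or smooth muscle-like cells led on both in control, with 80507 and 66780 CPM of the mitochondrially encoded genes.

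Within a class the genes differed widely in level. In control basal-like cells, Cox4i1, a nuclear-encoded regulatory subunit of complex IV, had 838 CPM, Cox6c 458 and Cox8a 430. Uqcrh, the hinge protein of complex III, had 471 CPM, ahead of Uqcr11 (237) and Uqcrb (232). In complex V, Atp5l had 465, Atp5h 411 and the catalytic beta subunit Atp5b 401 CPM. Complex I transcripts were each fewer, with Ndufa6 (213), Ndufb11 (211) and Ndufa7 (180) leading the accessory subunits, and Ndufs7 at 74.9 and Ndufv2 at 60.7 among the core. Assembly factors were fewer still, Ndufaf8 at 33.6, Ndufaf4 at 20.6 and Ndufaf2 at 17.1 CPM. Cox7a2l had 341 CPM.

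Both knockout libraries carried more of these transcripts than control in every epithelial and mesenchymal class compared. The ratio of summed CPM in basal-like cells was 1.198 (1.191 to 1.206) at 2 weeks and 1.22 (1.21 to 1.22) at 3 weeks. In the hair follicle, upper follicle cells had 1.07 and 1.23 and bulge cells 1.14 and 1.27. Suprabasal-like cells had 1.18 and 1.14, and cycling keratinocyte-like cells 1.22 and 1.18. Dermal papilla or sheath-like cells (1.09 and 1.25) and fibroblast-like cells (1.245 and 1.197), types in which the keratin 5 promoter is not known to be active, had ratios of like size. In the fibroblast-like class the fibroblast marker list itself stood at 91930, 44942 and 56259 CPM with all 8 markers above 0 in each library, and its part in the ratio was not tested. Of the 8 classes compared, only T or natural killer-like cells were lower at 2 weeks, at 0.899 (0.872 to 0.928). They stood at 1.04 (1.02 to 1.06) at 3 weeks. Classes with too few cells to compare went both ways at 2 weeks. Langerhans or dendritic-like cells (14535 CPM in control, 12788 at 2 weeks), melanocyte-like cells (14984, 14283) and pericyte or smooth muscle-like cells were lower. The last class mixes clusters. Its cluster 31, led by Rgs5, was higher, at 15614 CPM from 28 control cells and 19762 from 20 at 2 weeks. Its smooth muscle cluster held 22 control cells and 1 at 2 weeks. Blood endothelial-like (11805, 12117), Schwann-like and sebaceous gland-like cells were higher. Control cells were the deepest in all 8 classes (basal-like medians 14999, 11286 and 12594 UMIs), and cytoplasmic ribosomal protein genes moved alongside, at ratios of 1.19 and 1.25 in basal-like cells. With cells thinned to 2000 UMIs no ratio changed direction, though some were already under that number (194 of 3340 bulge-like cells at 2 weeks). Thinning leaves the expected share of a gene in a cell unchanged, so it cannot check the part of depth, which was not tested.

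A gene was called where its CPM ratio reached 1.3 in either direction, among genes with at least 100 UMIs in the class over the 3 libraries. In basal-like cells 83 of the 85 genes could be read, all but Cox4i2 and Cox7a1. At 2 weeks 18 of 83 were higher (21.7%) and 0 lower, beside 19.2% of 10280 genes higher and 9.58% lower, so the share called higher was near that of all genes while the lower side was empty. The median log2 ratio of the 83 was 0.23 against 0.08 for all genes. At 3 weeks 29 of 83 were higher (34.9%) and 0 lower, beside 25.8% and 16.2%, with a median of 0.29 against 0.10. A ratio above 1 was found for 69 (83.1%) and then 78 (94.0%) of the 83, beside 59.4% and 58.0% of all genes. With the 2 clusters of the class weighted equally, 6 and 7 were called higher.

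The same count in the other epithelial classes gave a higher share at 3 weeks in the follicle. In bulge-like cells 12 of 83 were higher and 2 lower at 2 weeks (all genes 14.9% and 12.5%), and 43 of 83 higher and 1 lower at 3 weeks (23.0% and 18.4%), the largest share of members in any comparison here (51.8%). Upper hair follicle-like cells had 10 higher and 1 lower of 83 (21.1% and 14.4%) and then 31 higher and 1 lower (21.1% and 19.1%). Suprabasal-like cells had 15 higher and 0 lower of 82 (14.6% and 14.3%) and then 9 higher and 1 lower (17.6% and 16.4%). Cycling keratinocyte-like cells had 22 higher and 1 lower of 82 (12.7% and 13.5%), then 21 higher and 2 lower (16.7% and 17.7%). In bulge-like cells the share called higher was near the background at 2 weeks (14.5%). With the clusters of the class weighted equally, 23 of 83 were higher there at 3 weeks (27.7%), beside 23.3% of all genes. With cells thinned to 2000 UMIs 30 were higher in bulge-like cells at 2 weeks. The share of all genes is not given for thinned cells, so the 30 cannot be read against a background. Cycling cells lay above the background share at both times.

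In dermal papilla or sheath-like cells 11 of 79 were higher and 2 lower at 2 weeks (13.7% and 18.1% of all genes) and 33 higher and 0 lower at 3 weeks (22.7% and 17.6%). Fibroblast-like cells had 29 higher and 1 lower of 80 (29.1% and 17.0%) and 23 higher and 0 lower (30.7% and 9.1%), in a class where all genes together had a median log2 ratio of 0.12 and 0.18. T or natural killer-like cells had 2 higher and 23 lower of 71 at 2 weeks (20% and 26.0%) and 5 higher and 2 lower at 3 weeks (16.4% and 20.5%). In that class the 2-week library held 100 cells at a median of 3319 UMIs, and only 11 of 71 genes had a ratio above 1. Equal weighting of clusters used those with at least 20 cells in each library, which in this class left cluster 16 alone. On it 5 were higher and 16 lower at 2 weeks (all genes 16.1% and 23.9%). At 3 weeks 16 were higher and 0 lower (all genes 19.2% and 23.7%). With the clusters weighted equally, 18 of 80 were higher in fibroblast-like cells at 2 weeks (22.5%, all genes 24.4%).

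**Figure D2:**
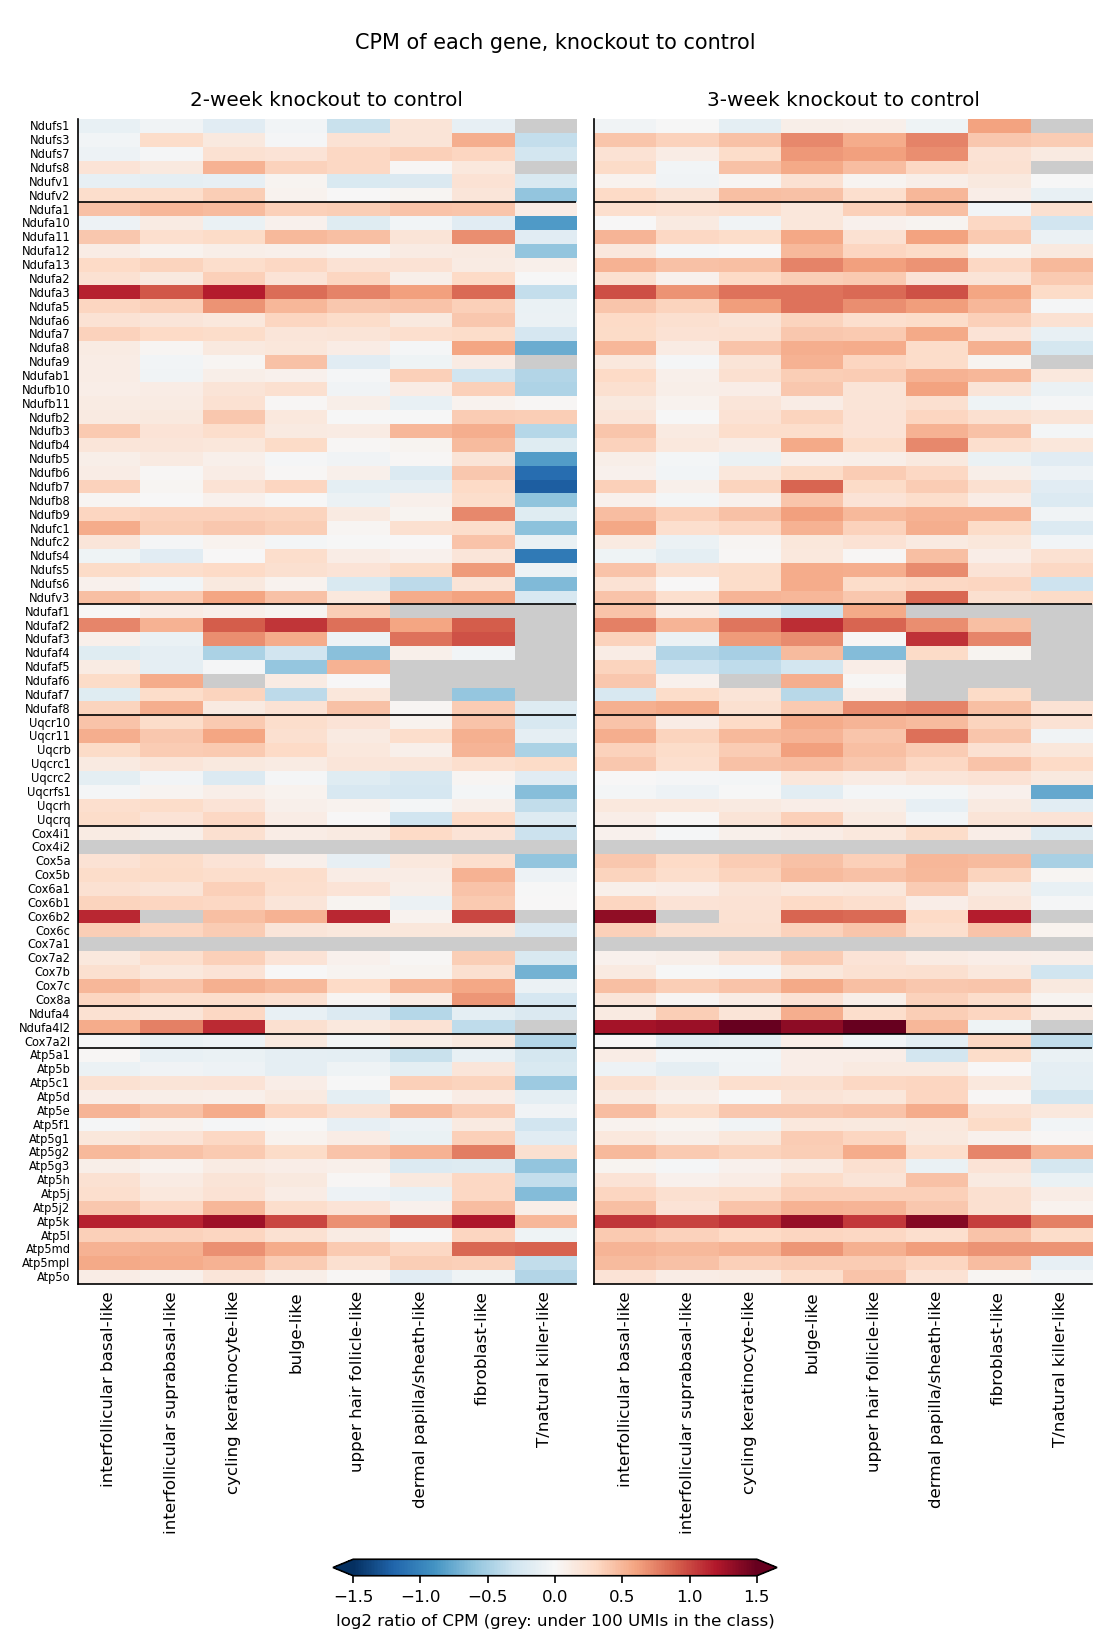
log2 ratio of CPM, knockout to control, of 84 of the 85 genes (rows, grouped by complex and separated by lines) in 8 cell classes (columns) at 2 and 3 weeks, with grey for genes under 100 UMIs in the class. Atp5k is red in all 8 columns of both panels, and the T or natural killer-like column at 2 weeks is mostly blue, with 23 of 71 genes at least 1.3-fold lower.

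Complex V held the genes that were higher most widely. Atp5k, the small e subunit that helps to hold ATP synthase dimers, had 107, 240 and 226 CPM in basal-like cells, a ratio of 2.23 (2.09 to 2.39) and 2.10 (1.98 to 2.24). Cycling keratinocyte-like cells had 152, 366 and 322 CPM of Atp5k, and bulge-like cells 83.3, 167 and 207. Of the 71 genes that could be read in all 8 classes, Atp5k was the one that was at least 1.3-fold higher in all 8 at 2 weeks (ratios 1.42 to 2.42), and Atp5k (1.69 to 2.60) and Atp5md (1.402 to 1.591) were at 3 weeks. The classes share the same libraries and are no replicates of each other. How many of all genes were called higher in as many classes was not counted, here or for the genes below. Atp5k shares its 3' end with the pseudogene Atp5k-ps2, so its reads cannot be told apart from that copy's.

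Atp5md, another small membrane subunit of ATP synthase, had 186, 266 and 266 CPM in basal-like cells. Its highest level was in T or natural killer-like cells, at 670, 1233 and 1066 CPM, where its ratio was 1.84 (1.64 to 2.07) and 1.59, where 2 and then 5 of the 71 genes were called higher. Atp5g2, 1 of the 3 genes for the c subunit of the rotor, had 316, 445 and 441 CPM in basal-like cells and was called higher in 6 classes at 2 weeks and 5 at 3 weeks. Its paralog Atp5g3 had 167, 178 and 172 CPM and was called higher in none of the 8 classes. Atp5md, like Atp5g2, has annotated copies of its 3' end.

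The large catalytic subunits did not follow these small ones. Atp5b had 401, 377 and 380 CPM in basal-like cells and ratios of 0.852 to 1.13 over the 8 classes at 2 weeks and 0.910 to 1.098 at 3 weeks. Atp5a1, the catalytic alpha subunit, ranged from 0.793 to 1.01 and then 0.829 to 1.21. Within complex V, 6 and then 7 of 17 genes were called higher in basal-like cells, beside 19.2% and 25.8% of all genes. None of those calls in complex V was Atp5a1 or Atp5b.

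In complex I the accessory subunit Ndufa3 had 47.7, 106 and 93.1 CPM in basal-like cells, a ratio of 2.22 (2.01 to 2.45) and 1.95 (1.78 to 2.15). It was called higher in the same number of classes, 7 of 8, at both times. Its 3' end is shared with no other annotated gene. T or natural killer-like cells were the exception, with 98.2, 76.9 and 120 CPM. Ndufv3, an accessory subunit of the NADH-binding arm, had 95.7, 131 and 129 CPM in basal-like cells and was called higher in 6 and then 5 classes. Of the 29 accessory subunits 6 and then 10 were called higher in basal-like cells and 0 lower. Of all genes there, 19.2% and 25.8% were called higher and 9.58% and 16.2% lower, so the higher share at 2 weeks was near that of all genes.

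The 7 core subunits of complex I, which carry its flavin and iron-sulphur centres, were close to control at 2 weeks in 4 epithelial classes. Their summed ratio was 1.02 in basal-like, 1.03 in upper hair follicle-like, 1.04 in suprabasal-like and 1.04 in bulge-like cells, below that of complexes III, IV and V in each of these 4 classes. It was 1.11 (1.05 to 1.17) in cycling keratinocyte-like, 1.17 (1.03 to 1.33) in fibroblast-like, 1.05 in dermal papilla or sheath-like and 0.902 (0.723 to 1.12) in T or natural killer-like cells. At 3 weeks it was 1.15 in basal-like, 1.23 in upper hair follicle-like, 1.05 in suprabasal-like and 1.31 in bulge-like cells. Ndufs1 had 28.2, 26.1 and 27.2 CPM in basal-like cells and Ndufv1 52.5, 48.2 and 54.7. Ndufs3 differed, with 45.3, 43.9 and 60.6 CPM, and was called higher in 6 of 8 classes at 3 weeks after 1 at 2 weeks, although its 3' end has an annotated copy.

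Among the assembly factors, Ndufaf2 was called higher in all 7 classes in which it could be read at both times, with 17.1, 28.3 and 28.8 CPM in basal-like cells and 25.2, 47.4 and 44.1 in cycling keratinocyte-like cells. Ndufaf4 had a median ratio over 7 classes of 0.879 at 2 weeks, with a lowest value of 0.647 in upper hair follicle-like cells, and was called lower in 2. At 3 weeks its median was 1.03, and it was called lower in 3 classes and higher in 1. Ndufaf1, Ndufaf5 and Ndufaf6 were each under 6 CPM in basal-like cells when pooled.

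In complex III, Uqcr11 had 237, 346 and 344 CPM in basal-like cells and was called higher in 4 and then 6 classes. The core protein Uqcrc2 and the Rieske iron-sulphur protein Uqcrfs1 were called higher in none, with 90.4, 82.0 and 90.8 CPM for Uqcrc2 and 124, 123 and 122 for Uqcrfs1 in basal-like cells. In complex IV, Cox7c had 381, 537 and 523 CPM in basal-like cells and was called higher in 6 classes at both times, while Cox4i1 had 838, 915 and 877 CPM and was called in none. The 3' ends of Uqcr11 and Cox7c have annotated copies. Cox7a2l stood at 341, 339 and 342 CPM.

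Genes with short transcripts, 59 of the 85, were called higher more often than longer ones in basal-like cells, a relation looked at only after the ratios had been seen. In basal-like cells at 2 weeks, 18 of 57 genes with a transcript under 1000 bases were called higher (median log2 ratio 0.28) and 0 of 26 longer ones (0.01). At 3 weeks it was 24 of 57 (0.34) and 5 of 26 (0.12). In percentage points, the gap at 3 weeks was smaller in every other class except bulge-like and upper hair follicle-like cells. There were 16 of 57 short and 5 of 25 long genes called in cycling keratinocyte-like cells and 18 of 57 and 5 of 23 in fibroblast-like cells. T or natural killer-like cells had 4 of 52 and 1 of 19, and suprabasal-like cells 8 of 56 and 1 of 26. Dermal papilla or sheath-like cells had 27 of 56 and 6 of 23. Of all short and long genes at 3 weeks, 35.0% and 24.5% were called higher in basal-like cells. The shares were 24.4% and 15.5% in cycling keratinocyte-like and 36.4% and 20.6% in dermal papilla or sheath-like cells. They were 36.0% and 29.9% in fibroblast-like, 18.6% and 16.0% in T or natural killer-like and 22.0% and 17.0% in suprabasal-like cells. In these last 3 classes both short and long genes of the 85 were called less often than that. The Spearman correlation of transcript length with log2 ratio was −0.72 over the 83 genes at 2 weeks and −0.45 at 3 weeks, across genes that are no replicates. Over the 8 classes it ran from −0.72 to −0.28 at 2 weeks and from −0.52 to −0.23 at 3 weeks. The same tilt, weaker, ran through all genes measured: −0.16 and −0.23 in basal-like cells, with 25.8% of short and 18.3% of long genes called higher at 2 weeks. Core complex I subunits had a median transcript of 1623 bases and the 85 genes one of 732. The part of transcript length in the differences between genes was not tested.

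**Figure D3:**
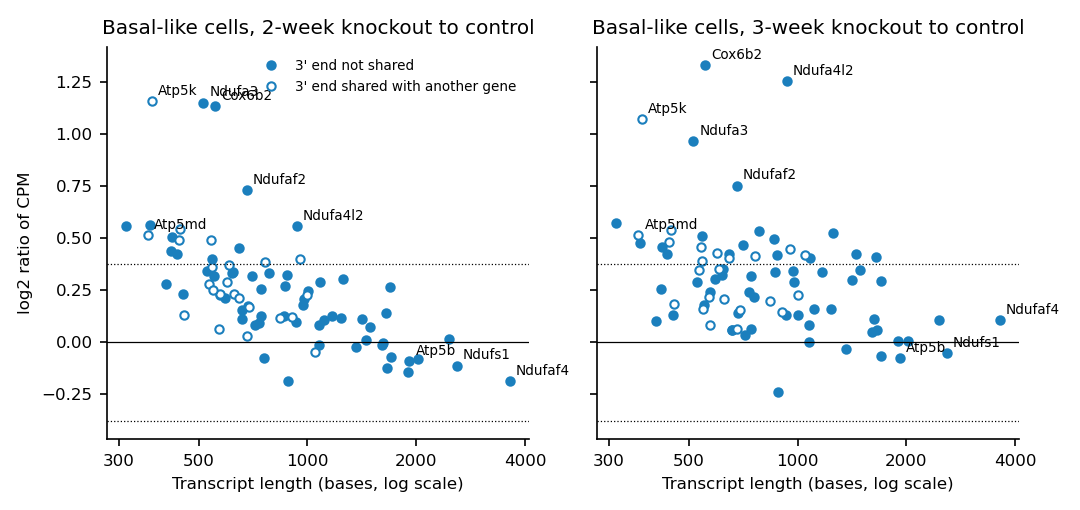
log2 ratio of CPM, knockout to control, in basal-like cells (y axis) against transcript length in bases on a log scale (x axis), 1 point per gene, open where the 3' end is shared with another annotated gene, with dotted lines at 1.3-fold. At 2 weeks the 18 genes above the upper line all have transcripts under 1000 bases.

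Genes with and without the NRF1 letters were called higher at both times, and the difference between them was not tested. In basal-like cells, 4 of the 10 genes with the letters and 12 of the 60 without were called higher at 2 weeks, with medians of 0.30 and 0.21, and 7 of 10 and 18 of 60 at 3 weeks (0.45 and 0.25). In fibroblast-like cells 6 of 9 with and 21 of 59 without were called at 2 weeks. At 3 weeks it was 7 of 9 and 12 of 59. Of all genes, 19.2% and then 25.8% were called higher in basal-like cells and 29.1% and then 30.7% in fibroblast-like cells. Genes without the letters lay near that share in basal-like cells at 2 weeks and below it in fibroblast-like cells at 3 weeks. The median with the letters was the higher in each of the 8 classes at both times, except in dermal papilla or sheath-like cells at 3 weeks (0.31 against 0.36). Single genes did not all follow their group. Ndufaf4 holds the letters and was not called higher in basal-like cells, and Ndufa3 lacks them and was among the highest. These 2 were picked by their ratios and carry no weight beside the counts and medians.

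The basal-like class differed in makeup between the libraries. It was made of cluster 1 (Epgn, Itga2, Thbs1) and cluster 3 (Fbxo32, Krt14, Smoc2), and cluster 3, which had the higher level in control (17809 against 13658 CPM), supplied 133 of 715, 588 of 1403 and 1010 of 1830 basal-like cells. Within cluster 1 the ratio was 1.17 (1.16 to 1.17) and 1.18 (1.17 to 1.19), and within cluster 3 it was 1.08 (1.06 to 1.09) and 1.04 (1.03 to 1.06). With the clusters weighted equally, 6 and 7 genes of 83 were called higher (7.23% and 8.43%) and 0 lower, in place of 18 and 29, beside 10.7% and 11.8% of all genes higher and 11.8% and 17.0% lower. The genes stayed above control within each cluster, by less than in the pooled class.

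In bulge-like cells the ratio was 1.19 and 1.31 in cluster 0 (Krt24, Postn, Lgr5), 1.07 and 1.18 in cluster 11, 1.14 and 1.23 in cluster 14 and 1.022 and 1.001 in cluster 17, which held 20 control cells. Every cluster of the suprabasal-like, upper hair follicle-like, cycling keratinocyte-like and fibroblast-like classes had ratios above 1 at both times, from 1.06 to 1.32. The fibroblast-like library at 2 weeks had 159 cells, against 438 and 822.

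The T or natural killer-like class also differed in makeup. Cluster 16 (Cd3g, Trdc, Cd3e) had 13596, 13197 and 15702 CPM, a ratio of 0.971 (0.934 to 1.01) and 1.16 (1.12 to 1.19). Cluster 27 (Icos, Cd52, Cxcr6) had 16516, 16724 and 16447 CPM, from 103, 8 and 81 cells, and so gave few cells in the 2-week library. Transcripts of the T cell marker list took 7830, 12598 and 12904 CPM of the class, with all 8 markers above 0 in each library, and those of the suprabasal list took 1923, 544 and 1146. The part of these marker levels in the ratio was not tested.

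Several subunits have paralogs, and their shares differed between cell types. Ndufa4 is a subunit of complex IV, and its relative Ndufa4l2 is known as a hypoxia-induced gene that restrains respiration. Ndufa4l2 had 183, 270 and 437 CPM in basal-like cells, 97.1, 210 and 369 in cycling keratinocyte-like cells and 114, 193 and 279 in suprabasal-like cells, in each case lowest in control and highest at 3 weeks. The ratio in basal-like cells was 1.473 (1.397 to 1.553) at 2 weeks and 2.38 (2.27 to 2.50) at 3 weeks, and in cycling keratinocyte-like cells it was 2.16 (1.93 to 2.43) and 3.799 (3.417 to 4.234). Fibroblast-like cells, which had as much of it in control (246 CPM), had 190 and 235 CPM in the knockouts. Bulge-like (6.70, 7.88 and 17.0) and upper hair follicle-like cells (8.60, 9.63 and 31.6) had little.

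Ndufa4l2 was among the genes that lead cluster 3, so its level was also read in clusters made without any of the 85 genes, mitochondrially encoded or ribosomal genes. In the 3 basal clusters so made, Ndufa4l2 had 315, 329 and 487 CPM, 149, 217 and 366 CPM, and 134, 204 and 320 CPM. The 3-week library was the highest in each. Of the 2 cycling clusters, cluster 13 had 129, 285 and 463 CPM of Ndufa4l2 and cluster 19 only 35.4, 5.78 and 40.1, so the difference from control was not shared by both. Ndufa4 itself changed little in basal-like cells, at 145, 170 and 159 CPM, and Ndufa4l2 made up 55.9% (54.2% to 57.5%), 61.4% (60.2% to 62.5%) and 73.4% (72.6% to 74.1%) of the pair's UMIs there. Its share was 68.1%, 64.5% and 62.03% in fibroblast-like cells and 0.0865%, 0.382% and 1.99% in sebaceous gland-like cells. Ndufa4 was instead highest among keratinocytes in suprabasal-like cells, at 579, 663 and 749 CPM, and most of that came from cluster 15, of late differentiation genes (Lor, Lce1m, Flg2), at 1013, 1197 and 1324 CPM.

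Cox6b2, the isoform of the cytochrome c-facing Cox6b subunit best known from testis, marked dermal papilla or sheath-like cells. It had 126, 131 and 155 CPM there, against 139, 131 and 150 CPM of Cox6b1, and so made up 49.8% (47.8% to 51.8%) of the pair's UMIs. In basal-like cells it was 0.826% and in suprabasal-like cells 0.326% of the pair, shares at which free RNA in the droplets cannot be told from expression. The pooled level of Cox6b2 was 140 CPM in dermal papilla or sheath-like cells and 46.3 CPM in the next class, cluster 25. Its ratio to control in that class was 1.04 (0.887 to 1.21) and 1.23 (1.06 to 1.42). In classes with far less of it Cox6b2 had larger ratios, 2.19 and 2.52 in basal-like cells (15, 49 and 83 UMIs), 2.20 and 1.80 in upper hair follicle-like cells (27, 122 and 89 UMIs) and 2.00 and 2.26 in fibroblast-like cells (42, 21 and 125 UMIs).

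Cox4i2, the isoform of Cox4 known from lung and from oxygen-sensing vascular cells, was highest in pericyte or smooth muscle-like cells, with 15, 11 and 37 UMIs (31.0, 87.9 and 92.2 CPM) and 2.22% (1.25% to 3.64%), 9.82% (5.01% to 16.9%) and 7.66% (5.45% to 10.4%) of the Cox4 pair. Within that class it stood at 103 CPM in cluster 31, led by Rgs5. Basal-like cells had 0 Cox4i2 among 45192 UMIs of the pair, which allows a share of up to 0.00664%. Cox7a1, the heart and muscle isoform, was sparse everywhere, with 13 UMIs in pericyte or smooth muscle-like and 26 in Langerhans or dendritic-like cells as its highest levels, 12.9 and 9.07 CPM. Of the c subunit genes, Atp5g1 outnumbered Atp5g2 in sebaceous gland-like cells (55.6% of the 2, 54.4% to 56.8%) and not in basal-like cells (38.9%).

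**Figure D4:**
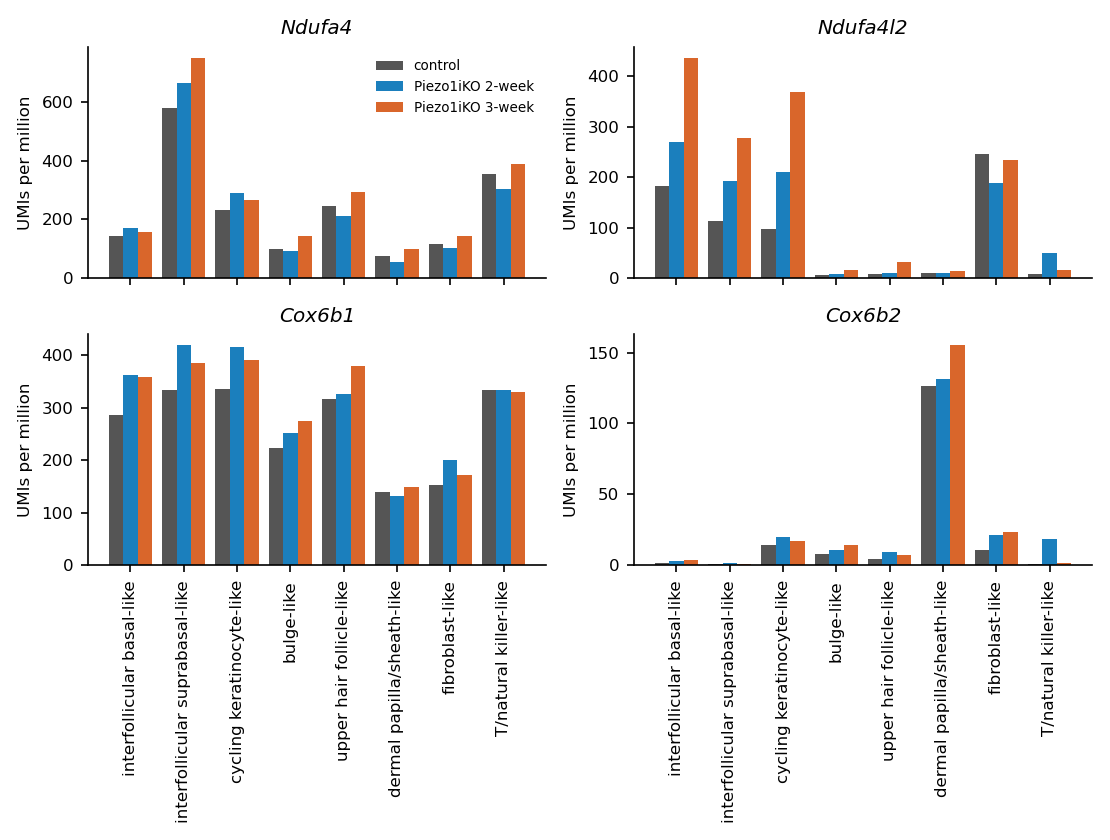
CPM of Ndufa4, Ndufa4l2, Cox6b1 and Cox6b2 (y axes, from 0) in 8 cell classes (x axis), 1 bar per library. Ndufa4l2 is highest at 3 weeks in basal-like cells (437 CPM), and Cox6b2 stands out in dermal papilla or sheath-like cells (126 to 155 CPM).

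The mitochondrially encoded subunits of the same complexes were lower than control at 2 weeks. Their 13 genes summed to 34662, 27326 and 34299 CPM in basal-like cells, a ratio of 0.788 at 2 weeks and 0.990 at 3 weeks, while the nuclear genes were at 1.198 and 1.217. At 2 weeks the mitochondrial ratio lay between 0.775 and 0.933 in all 8 classes. At 3 weeks it lay between 0.844, in dermal papilla or sheath-like cells, and 1.08. UMIs from the mitochondrial genome per UMI of the 85 nuclear genes were 2.43, 1.60 and 1.98 in basal-like cells and 2.31, 1.54 and 2.08 in sebaceous gland-like cells. The nuclear and mitochondrial sets thus differed in direction at 2 weeks in the 7 epithelial and mesenchymal classes.

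The 13 genes did not move as 1. In basal-like cells mt-Co1 had 1749, 2747 and 4514 CPM and mt-Nd4l 112, 284 and 364, both above control in each knockout. mt-Co3 (7362, 4955 and 6519 CPM), mt-Atp6 (8612, 6051 and 7448) and mt-Nd2 (2492, 1639 and 2007) were below it. At 2 weeks 4 of the 13 were called higher and 6 lower, and at 3 weeks 3 and 1. Mitochondrial transcripts also depend on the cell filter, and the share of all UMIs from the mitochondrial genome was 3.62%, 2.81% and 3.55%.

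Other mitochondrial and metabolic gene lists give the setting in basal-like cells. Of all genes 19.2% and then 25.8% were called higher. Of the 78 mitochondrial ribosomal protein genes, 17 (21.8%) and then 28 (35.9%) were called higher and 0 lower, with summed ratios of 1.15 and 1.22. Of the 16 tricarboxylic acid cycle and pyruvate dehydrogenase genes 0 were called in either direction at either time. Of 15 glycolysis genes 7 (46.7%) and then 9 (60.0%) were called higher and 1 and then 0 lower. Of 30 assembly factors of complexes IV, III, I and V 10 (33.3%) and then 12 (40.0%) were higher and 0 lower, and of 11 regulators of mitochondrial biogenesis 2 (18.2%) and then 3 (27.3%) were higher and 1 and then 2 lower. Complex II and cytochrome c genes, which the rule does not take in, had 1 of 6 higher at each time.

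**Figure D5:**
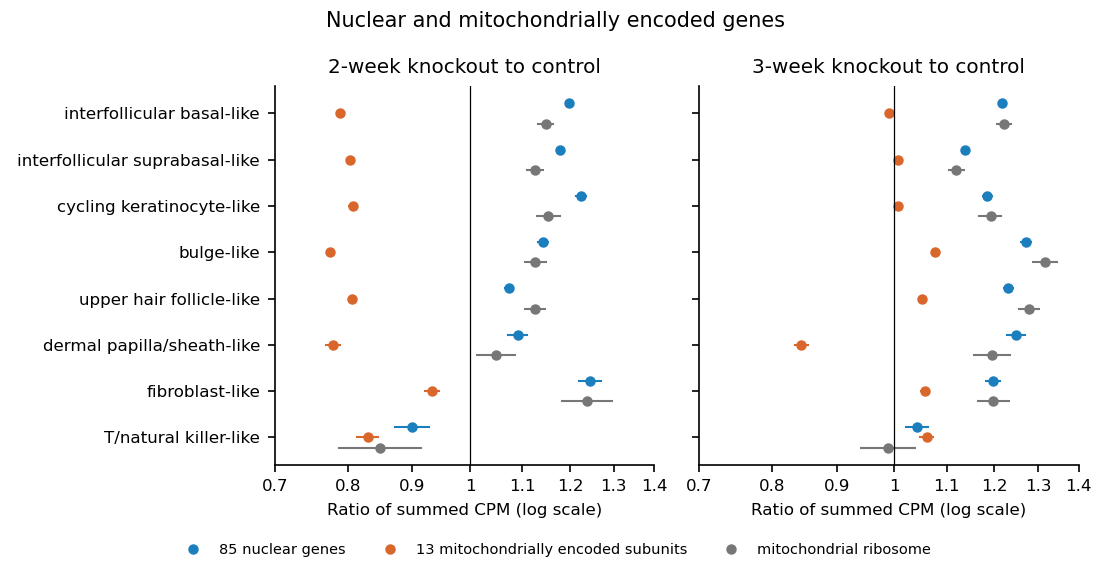
Ratio of summed CPM, knockout to control, on a log scale (x axis) for the 85 nuclear genes, the 13 mitochondrially encoded subunits and the mitochondrial ribosome in 8 cell classes (y axis), with exact counting intervals. At 2 weeks the nuclear genes lie above 1 and the mitochondrially encoded ones at 0.775 to 0.933, except in T or natural killer-like cells, where both lie below 1.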

How the data were processed

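Single-cell 3' libraries (10x Genomics) were made from back skin, per the labels' protocols, and processed with Cell Ranger 6.1.2 against mm10, per the submitters' processing notes. The authors deposited raw UMI counts for 32285 genes, not normalized. Libraries were grouped by genotype and time as labelled, 1 a group. Cells with at least 500 genes and under 15% mitochondrial counts were kept, doublets called by scrublet were left out (123, 301 and 356), and cells were clustered over the libraries with scanpy 1.11.5 and leidenalg 0.10.2 (2000 variable genes, 30 components, 15 neighbours, resolution 1). Counts were summed over the cells of a class and library and divided by the class total, giving CPM. Levels were read in classes of at least 100 cells, and ratios in classes of at least 100 cells in each library. Intervals are exact Poisson, conditional binomial or Clopper-Pearson intervals (scipy 1.17.1). Ratio and interval code was tested on simulated data.

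The genes, lists and marker sets were chosen with earlier results of these data known, and the rule that names clusters (a lead of 0.4 in marker score over the next type, at least 3 detected markers) was set after the clusters were seen. Named genes are the 3 highest of each complex in control basal-like cells, up to 10 a side past 1.3-fold in each class, both members of isoform pairs, genes at least 3 times their median in 1 class, and the highest and lowest ratio of each comparison; other lists were described by counts. Positions and transcript lengths are from GENCODE vM21 (GRCm38), with the lower median of the principal transcripts as a gene's length. A 3' end was called shared where its last 300 bases matched another gene's transcript at 95% identity over at least 90 bases (blastn 2.17.0), which held for 23 genes. Single values of 1 of the 85 genes are not reported here, and it stays in the sums and counts.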

Additional observations from a re-analysis of the deposited data

Results flagged for a closer look

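The ratio of the summed 85 genes in T or natural killer-like cells, knockout to control, was 0.899 at 2 weeks and 1.04 at 3 weeks, opposite directions in the same class. Within the class, cluster 16 had 0.971 (0.934 to 1.01) and 1.16, and cluster 27, with 103, 8 and 81 cells, had 1.01 (0.948 to 1.08) and 0.996 (0.965 to 1.03). The difference between the times was not tested, since each group is 1 library.

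Ndufb1-ps, left out by its symbol, had 71447 UMIs and a ratio in basal-like cells of 2.21 (2.08 to 2.35) at 2 weeks and 2.00 (1.89 to 2.12) at 3 weeks, in a gene outside the main measurement. It was above control in all 8 classes at both times.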

How the results depend on the processing

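No paired analysis was possible because each group is 1 library, and leaving out a replicate was not possible for the same reason. No ratio of the summed 85 genes changed direction under any alternative run, and the range was 1.115 to 1.244 and 1.101 to 1.286 in basal-like cells and 0.8555 to 0.9706 and 1.02 to 1.155 in T or natural killer-like cells (2 weeks, then 3 weeks). Of the counts of genes called higher 50 moved by over 1.5 times and 190 did not, and of those called lower 66 moved, to values of 0, 1, 2, 3, 4, 5 or 6, the 5 in T or natural killer-like cells coming with a minimum of 500 UMIs, which leaves fewer genes. Of the ratios 71 moved beyond their counting interval. The cause of other moves was not tested. Reading each cluster on its own and splitting genes by transcript length or NRF1 letters were chosen after seeing the data.

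Ratios by setting follow. With no cell filter: T or natural killer-like 0.9338, 1.068, bulge-like 1.158, fibroblast-like 1.228. With doublets kept: 0.9327, 1.07 and 1.23. With each cell weighted equally: T or natural killer-like 0.8618, 1.07, bulge-like 1.224, 1.318, cycling 1.208, dermal papilla 1.048, 1.283, fibroblast-like 1.211, suprabasal-like 1.164, 1.16, upper follicle 1.253. With clusters weighted equally: T or natural killer-like 0.9706, 1.155, bulge-like 1.096, 1.159, cycling 1.197, fibroblast-like 1.158, 1.237, basal-like 1.115, 1.101, suprabasal-like 1.162, 1.122, upper follicle 1.101. Thinned to 2000 UMIs: T or natural killer-like 1.09, bulge-like 1.235, 1.339, cycling 1.195, dermal papilla 1.053, 1.305, fibroblast-like 1.208, 1.216, suprabasal-like 1.142, 1.158. Scaled without mitochondrial and ribosomal genes: bulge-like 1.163, 1.36, cycling 1.257, 1.22, dermal papilla 1.119, fibroblast-like 1.169, basal-like 1.244, 1.286, suprabasal-like 1.22, 1.172, upper follicle 1.103, 1.312. At resolution 0.5: bulge-like 1.2, 1.312, fibroblast-like 1.276, 1.176, basal-like 1.209, suprabasal-like 1.153, upper follicle 1.089, 1.186. At resolution 2: cycling 1.189, basal-like 1.204, upper follicle 1.195. With the 85, mitochondrial and ribosomal genes out of the clustering: basal-like 1.209, upper follicle 1.09, 1.189. Without the 5 most abundant genes: T or natural killer-like 0.8555, 1.02, bulge-like 1.301, dermal papilla 1.05, upper follicle 1.251. The sebaceous to basal ratio was 2.35 with no filter, 2.412 at resolution 0.5, 2.284 thinned and 2.581 on the other scaling.

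Counts of genes called higher moved as follows. They describe how the counts of the 85 genes depend on the setting. The share of all genes is given beside them only for equal weighting of clusters, so the others cannot be read against a background. At 1.5-fold they were 4 and 5 in basal-like, 3 and 3 in suprabasal-like, 3 and 14 in bulge-like, 4 and 9 in upper follicle, 9 and 6 in cycling, 4 and 16 in dermal papilla, 13 and 7 in fibroblast-like and 1 and 2 in T or natural killer-like cells. Without genes that share a 3' end, they were 11 and 18 in basal-like, 9 in suprabasal-like, 20 in upper follicle, 13 and 13 in cycling, 7 in dermal papilla, 17 and 13 in fibroblast-like and 0 and 2 in T or natural killer-like cells. With clusters weighted equally they were 6 and 7 in basal-like cells (7.23% and 8.43%, all genes 10.7% and 11.8%). They were 23 in bulge-like cells at 3 weeks (27.7%, all genes 23.3%) and 18 in fibroblast-like cells at 2 weeks (22.5%, all genes 24.4%). On cluster 16 alone they were 5 and 16 in T or natural killer-like cells (7.04% and 22.5%, all genes 16.1% and 19.2%). Centred on the median of all genes they were 14 in basal-like at 3 weeks and 19 and 7 in fibroblast-like cells. Thinned, they were 30 in bulge-like at 2 weeks, 22 in suprabasal-like and 9 in T or natural killer-like cells at 3 weeks. With each cell weighted equally they were 28 in bulge-like and 16 in suprabasal-like, at resolution 0.5 they were 20 in bulge-like, and on the other scaling 15 in suprabasal-like cells. In T or natural killer-like cells they were 6 and 9 with no filter or with doublets kept, 1 with a minimum of 500 UMIs and 7 and 11 with a minimum of 1 UMI in each library. Depth limits the T or natural killer-like class most, with 71 of the 85 genes above 100 UMIs.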
